A study of Mus musculus with 9 samples.

Results

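The transcripts of 10 integrin subunits (Itga2, Itga3, Itga5, Itga6, Itga9, Itgav, Itgb1, Itgb4, Itgb6 and Itgb8) were followed across 4 cell populations sorted from mouse back skin. The genes were chosen by symbol, and each symbol matched 1 row, giving 10 of the 46517 gene rows in the tables. The libraries are suprabasal hair bulb (suprabasal HB, n = 2), basal hair bulb (basal HB, n = 2), outer root sheath (ORS, n = 2) and hair follicle stem cells (HFSC, n = 3). All 9 came from mice at postnatal day 30, in anagen VI, the late growth phase of the hair cycle. No group is a mutant or a treatment, so each comparison is between cell populations of normal follicles.

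Every library carries the same strain label, Lhx2-GFP on a CD1 background, and mixed sex, whereas the extraction text names K14-H2BGFP mice, in which a keratin 14 promoter drives a histone-bound GFP. The labels list 6 sort markers for all libraries alike: the GFP, the surface proteins CD34, Sca-1 and P-cadherin, and the integrins α6 and β1. No gate is given per population. Itga6 and Itgb1 therefore encode proteins that helped define the populations, and their transcript values are not independent of the sort. The other 8 subunits were not listed as sort markers. Nothing states how many mice gave a library, so the p-values measure the spread between these libraries, which may be technical.

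Integrins are transmembrane receptors made of 1 α and 1 β subunit that bind the extracellular matrix outside the cell and the cytoskeleton inside it. In the epidermis and hair follicle, α6β4 anchors basal keratinocytes to laminin through hemidesmosomes, which connect to keratin filaments. α3β1 and other β1 integrins bind laminin, collagen and fibronectin at actin-linked focal adhesions. αv pairs with several β subunits, of which β6 and β8 are known for releasing active TGF-β from its latent complex.

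Promoter sequences from RefSeq (GRCm38.p6, from 250 bases before to 50 after the annotated start) were available for 8 of the 10 genes, without Itga6 and Itgb4. Shown first are Itga3 and Itgb1, the most abundant laminin-receptor pair with a window, then Itgb6, the subunit with the widest range between populations, and Itgav, an α partner of Itgb6 with a different pattern of levels. Each window is printed 5′ to 3′ on the strand of the gene, and capitals mark the matched letters of the motifs searched.
Itga3, minus strand, chr11:95076665-95076964: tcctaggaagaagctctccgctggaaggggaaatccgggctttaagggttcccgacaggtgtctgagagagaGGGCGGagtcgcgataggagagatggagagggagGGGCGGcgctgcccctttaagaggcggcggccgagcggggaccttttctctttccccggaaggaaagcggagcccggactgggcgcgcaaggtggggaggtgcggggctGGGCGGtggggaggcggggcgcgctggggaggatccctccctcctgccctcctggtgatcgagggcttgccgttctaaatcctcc
Itgb1, plus strand, chr8:128685404-128685703: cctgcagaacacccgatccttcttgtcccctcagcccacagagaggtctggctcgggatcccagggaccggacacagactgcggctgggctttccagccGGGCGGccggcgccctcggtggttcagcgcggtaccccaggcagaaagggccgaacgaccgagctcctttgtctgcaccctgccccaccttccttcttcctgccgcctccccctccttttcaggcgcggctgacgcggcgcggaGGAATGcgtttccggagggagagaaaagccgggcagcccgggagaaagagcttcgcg
Itgb6, minus strand, chr2:60722554-60722853: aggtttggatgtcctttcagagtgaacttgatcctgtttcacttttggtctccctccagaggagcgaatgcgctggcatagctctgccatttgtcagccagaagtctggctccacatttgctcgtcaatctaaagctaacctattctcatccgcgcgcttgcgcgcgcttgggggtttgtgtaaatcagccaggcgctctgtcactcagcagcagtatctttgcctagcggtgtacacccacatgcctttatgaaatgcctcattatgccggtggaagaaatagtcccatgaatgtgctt
Itgav, plus strand, chr2:83724147-83724446: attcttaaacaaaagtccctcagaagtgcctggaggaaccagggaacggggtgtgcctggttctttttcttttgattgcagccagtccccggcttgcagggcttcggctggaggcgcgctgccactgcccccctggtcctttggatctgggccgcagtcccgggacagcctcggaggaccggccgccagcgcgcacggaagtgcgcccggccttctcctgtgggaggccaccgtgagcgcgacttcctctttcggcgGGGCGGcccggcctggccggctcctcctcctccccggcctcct
Of the motifs searched on both strands, the GC box (GGGCGG) occurred in 35.7% of all 32851 promoter windows, the AP-1 motif (TGANTCA) in 7.81%, the TATA box (TATAAA) in 13.6%, the TEAD motif (GGAATG) in 14.7%, the TCF/LEF motif (CTTTGAT) in 3.73% and the E-box (CACGTG) in 7.15%. The Itga3 window shown holds 3 GC boxes, the Itgb1 window 1 GC box and 1 TEAD motif, and the Itgav window 1 GC box, with no match overlapping another. None of the motifs was found in the Itgb6 window shown. Itga3 and Itgb6 each have a further RefSeq window that is not printed. The G and C content was 66.7% for Itga3, 67.3% for Itgb1 and 67.3% for Itgav, against 50.3% for Itgb6 and a median of 52.7% over all windows. These matches describe the letters only. In GENCODE M21 (GRCm38), Itga6 lies on chromosome 2 from 71745616 to 71858416 (plus strand) and Itgb4 on chromosome 11 from 115974709 to 116008412 (plus strand). All 10 are protein-coding genes, with Itga2 on chromosome 13, Itga5 on 15, Itga9 on 9 and Itgb8 on 12.

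Total counts were 45438637 and 50752545 in suprabasal HB, 60990600 and 63511683 in basal HB, 64569201 and 88596741 in ORS and between 25098237 and 29902799 in HFSC. The smallest number of reads assigned to any of the 10 genes in a library was 63, for Itgb6 in a suprabasal HB library. All 10 genes passed the filter on low counts. Levels of 1 gene between libraries are given as normalised CPM, counts scaled to library size, and levels between genes as TPM, transcript shares that allow for length. A gene was called when its adjusted p in edgeR's quasi-likelihood test, over all 20491 genes tested, was under 0.05. In these bulk samples, fewer cells of a type and less RNA per cell cannot be told apart.

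Markers of other cells were present in all populations. The summed level of 9 melanocyte markers was 16200 to 16610 CPM in suprabasal HB, 3899 to 4198 CPM in basal HB, 143 to 480 CPM in ORS and 168 to 232 CPM in HFSC. Gpnmb alone made up 2877 and 3016 CPM of the basal HB sums and was lower in suprabasal HB, at 1229 and 1331 CPM, whereas the other 8 markers were higher in suprabasal HB than in basal HB. The sum of 5 smooth muscle and mural markers was 54.7 to 75.2 CPM in suprabasal HB and 1368 to 1575 CPM in basal HB. It was 425 to 552 CPM in ORS and 1657 to 2261 CPM in HFSC. Only Acta2 and Tagln were highest in HFSC, whereas Myh11, Rgs5 and Des were highest in basal HB. Myh11 had 385 and 396 CPM in basal HB and 12.2 to 18.8 CPM in HFSC. The sum of 10 dermal fibroblast and papilla markers lay between 872 and 3883 CPM in the 9 libraries, that of 6 endothelial markers between 27.9 and 96.8 CPM, and that of 6 immune markers between 44 and 120 CPM. No melanocyte, mural, dermal or endothelial marker was at 0 in any library. The part of these cells in the integrin levels was not tested. As to the labelled types, 3 hair shaft genes summed to 1525 to 1687 CPM in suprabasal HB and 15.6 to 130 CPM in the other populations. The sum of 7 inner root sheath genes was 2300 to 3395 CPM in suprabasal HB and 4396 to 4710 CPM in basal HB. It was 833 to 1415 CPM in ORS and 638 to 1010 CPM in HFSC. Tchh averaged 625 CPM in suprabasal HB and 4005 CPM in basal HB, whereas the rest of that list was higher in suprabasal HB. Gata3, Krt25, Krt28 and Krt71 averaged less in basal HB than in ORS, and Krt27 and Krt73 more. By mean, Gata3 was lowest in basal HB and highest in ORS. The 6 bulge markers summed to 329 to 1078 CPM in both hair bulb populations, against 4691 to 5797 CPM in ORS and 4789 to 5298 CPM in HFSC. Of these, Nfatc1 ran the other way, with means of 6.32 CPM in basal HB, 7.05 CPM in suprabasal HB, 1.80 CPM in ORS and 4.35 CPM in HFSC. Within the bulge sums, Lhx2 averaged 3172 CPM in ORS and 1349 CPM in HFSC. Sox9 was 8.24-fold and Cd34 5.17-fold lower in ORS than in HFSC (edgeR adjusted p = 3.03e-05 and 5.43e-05). CD34 was a sort marker, so its transcript level is not independent of the sort. The 5 hair bulb matrix genes summed to 1276 to 1685 CPM in the hair bulb and 388 to 830 CPM in ORS and HFSC, though Foxn1 was lowest in basal HB. Krt5, Krt14 and Krt17 summed to 8972 to 11180 CPM in HFSC, 3247 to 3875 CPM in ORS and 1168 to 2500 CPM in the hair bulb. Lhx2 or Krt14 may also depend on the sort, as GFP was a marker and Lhx2-GFP and K14-H2BGFP are named.

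Itgb1, Itga3, Itga6 and Itgb4, the laminin-receptor subunits among the 10, were lowest in suprabasal HB. In CPM they were highest in HFSC, while in TPM Itga6 was not. Itgb1, the shared β subunit of the focal adhesion integrins, was the most abundant of the 10, with a mean of 126 TPM in suprabasal HB, 269.97 TPM in basal HB, 243 TPM in ORS and 325 TPM in HFSC. In CPM it had 311 and 284 in suprabasal HB, 501 and 568 in basal HB, 475 and 525 in ORS, and 856, 884 and 796 in HFSC. The basal HB and ORS libraries interleaved, and every HFSC library lay above them and every suprabasal HB library below. Itgb1 was 1.69-fold lower in ORS than in HFSC (log2 fold change -0.76 ± 0.11, SE, edgeR adjusted p = 0.000881) and 1.80-fold lower in suprabasal HB than in basal HB (-0.85 ± 0.12, edgeR adjusted p = 0.00127). Between basal HB and ORS the log2 difference was 0.10, with a 95% interval from -0.17 to 0.36 (edgeR adjusted p = 0.62).

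Itga3, the α subunit of the laminin receptor α3β1, fell more steeply. It had 101 and 113 CPM in suprabasal HB, 259 and 299 CPM in basal HB, 333 and 383 CPM in ORS, and 727, 595 and 621 CPM in HFSC. The 4 populations did not overlap. Itga3 was 6.05-fold lower in suprabasal HB than in HFSC (log2 fold change -2.60 ± 0.14, edgeR adjusted p = 2.13e-06), 2.32-fold lower in basal HB than in HFSC (-1.21 ± 0.13, edgeR adjusted p = 0.000123) and 1.81-fold lower in ORS than in HFSC (-0.86 ± 0.13, edgeR adjusted p = 0.00111). The step between basal HB and ORS, -0.36 ± 0.14 on the log2 scale, did not pass (edgeR adjusted p = 0.0878).

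Itga6, the α subunit of the hemidesmosome receptor α6β4 and of the laminin receptor α6β1, had the smallest range of the laminin-binding subunits. Its values were 121 and 131 CPM in suprabasal HB, 222 and 242 CPM in basal HB, 164 and 205 CPM in ORS, and 315, 294 and 278 CPM in HFSC. The populations did not overlap, and basal HB stood between ORS and HFSC. Itga6 was 2.35-fold lower in suprabasal HB than in HFSC (log2 fold change -1.23 ± 0.12, edgeR adjusted p = 4.71e-05) and 1.60-fold lower in ORS than in HFSC (-0.68 ± 0.12, edgeR adjusted p = 0.0021). On TPM without a low-value filter the ORS difference was -0.32 and not called (limma adjusted p = 0.0827). In basal HB against HFSC the difference of -0.35 ± 0.12 passed (edgeR adjusted p = 0.0359) but did not hold: on the TPM scale it was 0.10 with a limma adjusted p of 0.492, and the mean level was 143 TPM in basal HB and 134 TPM in HFSC. Basal HB over ORS gave 0.33 ± 0.13, which did not pass (edgeR adjusted p = 0.083) but did with upper-quartile scaling (0.0294) and in DESeq2 (0.0196). The difference of -0.55 ± 0.13 in suprabasal HB over ORS passed (edgeR adjusted p = 0.0115) and was not called without the suprabasal HB 1 library (0.0673) or the ORS 2 library (0.0841).

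Itgb4, the partner of α6 in hemidesmosomes, covered a wider range than Itga6. It had 75.7 and 51.1 CPM in suprabasal HB, 237 and 239 CPM in basal HB, 152 and 204 CPM in ORS, and 515, 360.2 and 419 CPM in HFSC. No library of 1 population fell within the range of another. Itgb4 was 6.80-fold lower in suprabasal HB than in HFSC (log2 fold change -2.77 ± 0.23, edgeR adjusted p = 1.93e-05), 3.75-fold lower in suprabasal HB than in basal HB (-1.91 ± 0.23, edgeR adjusted p = 0.00064) and 2.42-fold lower in ORS than in HFSC (-1.28 ± 0.22, edgeR adjusted p = 0.00181). The difference between basal HB and ORS, 0.42 ± 0.23, did not pass (edgeR adjusted p = 0.212). In basal HB over HFSC, -0.86 ± 0.21 passed (edgeR adjusted p = 0.00954), and the call ended without either basal HB library or the HFSC 1 library (edgeR adjusted p = 0.0568 to 0.0647). An antisense gene, B230344G16Rik, shares 537 exonic bases with Itgb4 and held 462 reads over all libraries; the kit does not mark strand.

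**Figure D1:**
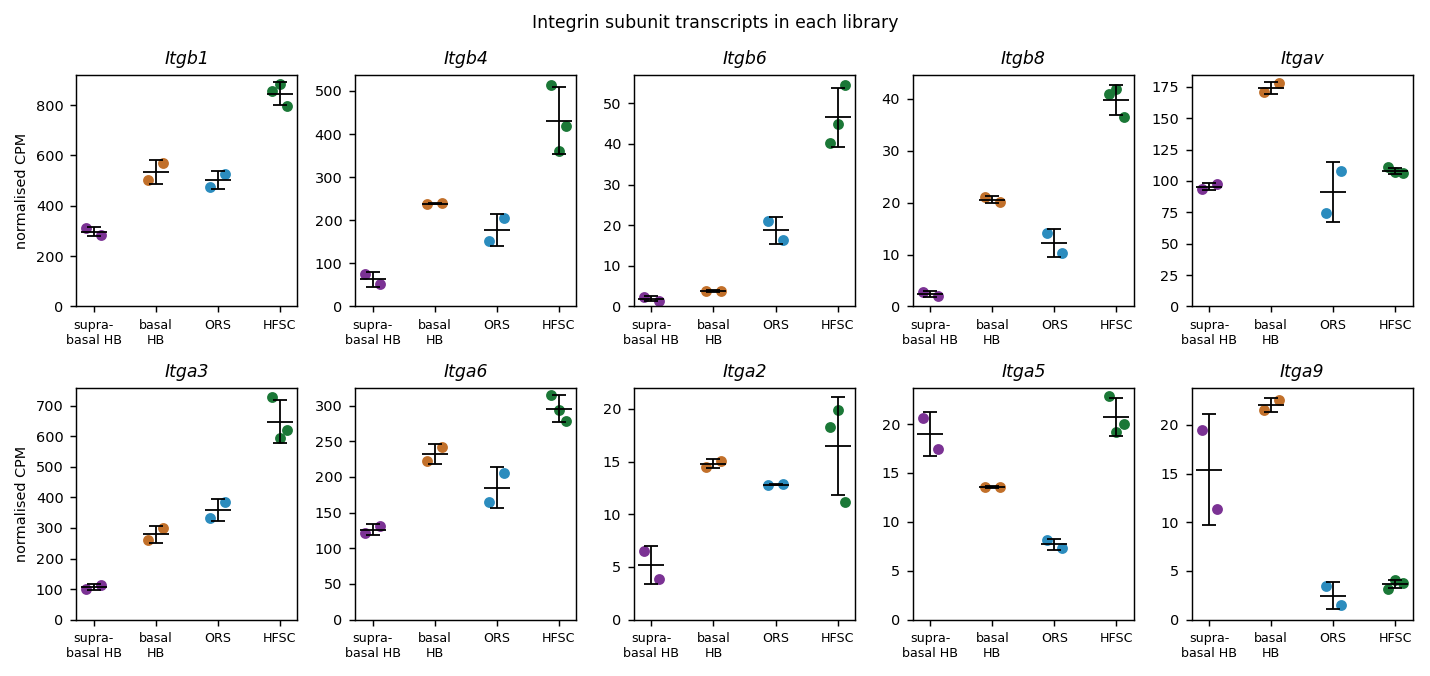
Normalised CPM (y axis, from 0, a separate scale per gene) of the 10 integrin subunits in suprabasal HB, basal HB, ORS and HFSC libraries (points), with the mean (horizontal line) and SD (bars). Itgb1, Itgb4, Itgb6, Itgb8, Itga3 and Itga6 are highest in HFSC and lowest in suprabasal HB, Itgav is highest in basal HB, and Itga9 is higher in both hair bulb populations than in ORS and HFSC.

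The ratio of the TPM of Itga6 to that of Itgb4 was 2.73 and 4.56 in suprabasal HB, 1.63 and 1.82 in basal HB, 1.87 and 1.65 in ORS, and 1.006, 1.30 and 1.09 in HFSC. Transcripts of these hemidesmosome subunits were closest to equal in the HFSC libraries. The ratio of Itga3 to Itga6 was 0.561 and 0.555 in suprabasal HB, 0.794 and 0.825 in basal HB, 1.38 and 1.30 in ORS, and 1.68, 1.42 and 1.61 in HFSC. Itga6 transcripts exceeded Itga3 transcripts in all 4 hair bulb libraries, and the reverse held in all 5 ORS and HFSC libraries.

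Itgb6 and Itgb8, which encode β partners of αv, covered wider ranges than the laminin receptors, at lower levels. Itgb6 had 2.36 and 1.41 CPM in suprabasal HB, 3.70 and 3.88 CPM in basal HB, 20.99 and 16.4 CPM in ORS, and 40.2, 45.0 and 54.4 CPM in HFSC. The order HFSC, ORS, basal HB, suprabasal HB held without overlap, and each step was called. Itgb6 was 24.5-fold lower in suprabasal HB than in HFSC (log2 fold change -4.62 ± 0.26, edgeR adjusted p = 2.35e-06) and 12.3-fold lower in basal HB than in HFSC (-3.62 ± 0.24, edgeR adjusted p = 1.16e-05). It was also 4.93-fold lower in basal HB than in ORS (-2.30 ± 0.24, edgeR adjusted p = 0.000261). The smallest step, 1.997-fold lower in suprabasal HB than in basal HB (edgeR adjusted p = 0.0181), was not called when either basal HB library or the suprabasal HB 2 library was left out (edgeR adjusted p = 0.071 to 0.0902). On TPM with a pseudocount of 1 it was -0.47 on the log2 scale and not called, with or without a low-value filter (limma adjusted p = 0.109 and 0.178).

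Itgb8 had 2.87 and 2.01 CPM in suprabasal HB, 21.04 and 20.2 CPM in basal HB, 14.1 and 10.4 CPM in ORS, and 41.0, 41.9 and 36.5 CPM in HFSC. Suprabasal HB stood far below the rest. Itgb8 was 16.2-fold lower in suprabasal HB than in HFSC (log2 fold change -4.02 ± 0.21, edgeR adjusted p = 1.64e-06) and 8.40-fold lower in suprabasal HB than in basal HB (-3.07 ± 0.21, edgeR adjusted p = 4.38e-05). Its order differed from that of Itgb6 in 1 step: it was 1.69-fold higher in basal HB than in ORS (0.75 ± 0.18, edgeR adjusted p = 0.0138). That call ended without either basal HB library or without the ORS 2 library (edgeR adjusted p = 0.0555 to 0.0811).

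Itgav, the α subunit that both pair with, had a different pattern. It had 93.4 and 97.5 CPM in suprabasal HB, 171 and 178 CPM in basal HB, 74.3 and 108 CPM in ORS, and 111, 107 and 106 CPM in HFSC. Basal HB was the high population, and the others lay close together. Itgav was 1.91-fold higher in basal HB than in ORS (log2 fold change 0.93 ± 0.15, edgeR adjusted p = 0.00209), 1.61-fold higher in basal HB than in HFSC (0.69 ± 0.14, edgeR adjusted p = 0.00328) and 1.82-fold lower in suprabasal HB than in basal HB (-0.87 ± 0.15, edgeR adjusted p = 0.00378). None of the other 3 comparisons was called, with log2 differences of 0.07 for suprabasal HB over ORS, -0.18 for suprabasal HB over HFSC and -0.25 for ORS over HFSC. The last of these depended on the ORS library: it was -0.54 without the ORS 2 library (edgeR adjusted p = 0.00575) and 0.0027 without the ORS 1 library (edgeR adjusted p = 0.99).

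Itgb5, another β partner of αv and by mean TPM the most abundant integrin subunit outside the 10, had 52.3 and 54.3 TPM in suprabasal HB, 73.3 and 77.5 TPM in basal HB, 67.7 and 81.6 TPM in ORS, and 115, 104 and 119 TPM in HFSC. It thus exceeded Itgb6 and Itgb8 in TPM in every library. Itgb3, a further αv partner, had 17.1 and 15.6 TPM in suprabasal HB, 3.29 and 2.17 TPM in basal HB, 0.70 and 0.33 TPM in ORS, and 0.47, 0.36 and 0.54 TPM in HFSC. It was high where Itgb6 was low, and was 33.5-fold higher in suprabasal HB than in HFSC (log2 fold change 5.06 ± 0.31, edgeR adjusted p = 3.32e-06). The sum of the 9 melanocyte markers was also highest in suprabasal HB, though Gpnmb was highest in basal HB. The part of melanocytes in the Itgb3 level was not tested.

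The other α subunits were less abundant, and each had its own order. Itga5, the α subunit of the fibronectin receptor α5β1, had 20.6 and 17.4 CPM in suprabasal HB, 13.6 and 13.5 CPM in basal HB, 8.12 and 7.30 CPM in ORS, and 22.9, 19.2 and 20.0 CPM in HFSC. Suprabasal HB and HFSC overlapped at the high end, and ORS was lowest. Itga5 was 2.69-fold lower in ORS than in HFSC (log2 fold change -1.43 ± 0.14, edgeR adjusted p = 0.000118) and 2.47-fold higher in suprabasal HB than in ORS (1.30 ± 0.14, edgeR adjusted p = 0.000222). Suprabasal HB over HFSC gave -0.12, with a 95% interval from -0.42 to 0.17 (edgeR adjusted p = 0.46). The 1.40-fold higher level in suprabasal HB than in basal HB (edgeR adjusted p = 0.033) did not pass on the TPM scale (limma adjusted p = 0.488) or with any one of the 4 hair bulb libraries left out (edgeR adjusted p = 0.0512 to 0.171).

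Itga9, which pairs with β1 and binds tenascin-C and other matrix proteins, was higher in the hair bulb. It had 19.5 and 11.3 CPM in suprabasal HB, 21.5 and 22.5 CPM in basal HB, 3.45 and 1.497 CPM in ORS, and 3.19, 4.03 and 3.78 CPM in HFSC. All 4 hair bulb libraries lay above all 5 others. Itga9 was 8.95-fold higher in basal HB than in ORS (log2 fold change 3.16 ± 0.39, edgeR adjusted p = 0.000591), 6.01-fold higher in basal HB than in HFSC (2.59 ± 0.34, edgeR adjusted p = 0.00034) and 4.21-fold higher in suprabasal HB than in HFSC (2.07 ± 0.34, edgeR adjusted p = 0.000986). The suprabasal HB libraries differed from each other by more than the basal HB libraries did, and suprabasal HB over basal HB, -0.52 ± 0.36, did not pass (edgeR adjusted p = 0.328). ORS over HFSC, -0.57 ± 0.36, was not called either (edgeR adjusted p = 0.228), although it was without the ORS 1 library (-1.29, edgeR adjusted p = 0.0179). Melanocyte markers were higher in both hair bulb populations, as Itga9 was, and their part was not tested.

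Itga2, the α subunit of the collagen receptor α2β1, had 6.48 and 3.89 CPM in suprabasal HB, 14.5 and 15.1 CPM in basal HB, 12.8 and 12.8 CPM in ORS, and 18.3, 19.9 and 11.2 CPM in HFSC. The HFSC libraries spanned the basal HB and ORS values, and none of the comparisons among these 3 populations was called. Suprabasal HB stood below all of them: Itga2 was 3.16-fold lower than in HFSC (log2 fold change -1.66 ± 0.29, edgeR adjusted p = 0.00129), 2.85-fold lower than in basal HB (-1.51 ± 0.30, edgeR adjusted p = 0.00664) and 2.46-fold lower than in ORS (-1.30 ± 0.30, edgeR adjusted p = 0.0111). The last call ended without the suprabasal HB 2 library (-0.97, edgeR adjusted p = 0.0716).

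**Figure D2:**
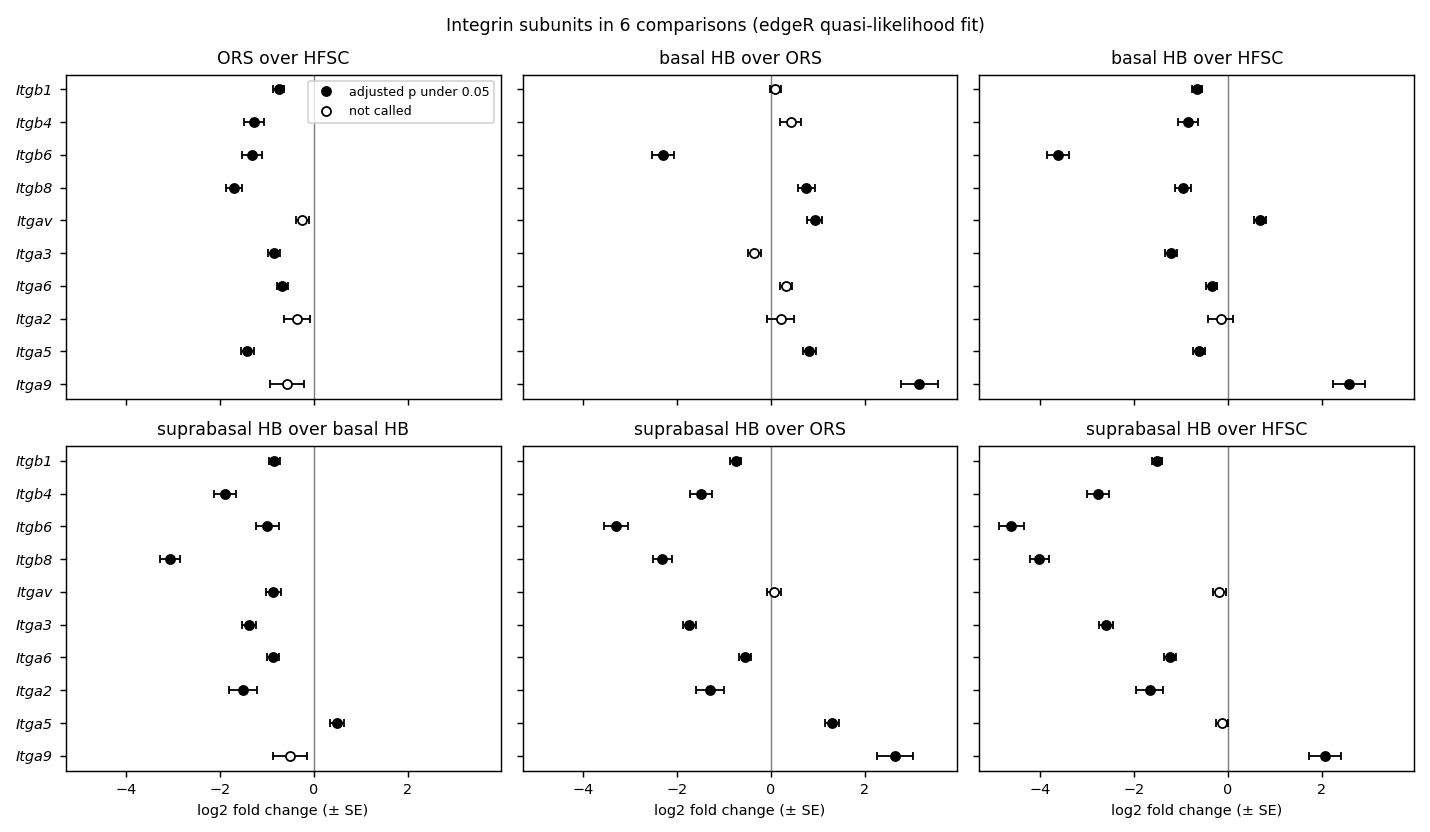
Log2 fold change ± SE (x axis) of the 10 subunits (rows) in the 6 comparisons of populations, the first-named population over the second; filled points have an edgeR adjusted p under 0.05. Most filled points lie left of 0 except in basal HB over ORS, and Itga9 lies furthest right wherever a hair bulb population is set against ORS or HFSC.

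In ORS over HFSC, 7 of the 10 subunits fell and 0 rose, where 41.9% of all genes tested were called (23.8% lower, 18.1% higher). The libraries did not overlap for these 7, as for 61.8% of all genes. The median log2 fold change was -0.81 over the subunits and -0.05 over all genes. Itga2, Itga9 and Itgav were the 3 that were not called, at -0.36, -0.57 and -0.25, and their libraries overlapped. In basal HB over HFSC, 7 subunits fell, Itga9 and Itgav rose and Itga2 was not called, where 48.9% of all genes were called (22.8% higher, 26.1% lower). The libraries did not overlap for 9 subunits, as for 69.7% of all genes, and the medians were -0.64 and -0.00404. In basal HB over ORS, where 30.5% of all genes were called (15.8% higher, 14.7% lower), Itga5, Itga9, Itgav and Itgb8 rose, Itgb6 fell and the other 5 were not called. The libraries did not overlap for 9 subunits, as for 67.4% of all genes, and the medians were 0.38 and -0.04.

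In suprabasal HB over basal HB, 8 of the 10 subunits fell, Itga5 rose and Itga9 was not called, where 27.9% of all genes were called (13.1% higher, 14.8% lower). The libraries of these populations did not overlap for any of the 10, as for 68.5% of all genes, and the medians were -0.94 over the subunits and 0 over all genes. In suprabasal HB over ORS, where 29.4% of all genes were called (14.3% higher, 15.1% lower), 7 fell, Itga5 and Itga9 rose and Itgav was not called, with medians of -1.03 and -0.01. The libraries did not overlap for 9 subunits, as for 65.1% of all genes. In suprabasal HB over HFSC, where 51.5% of all genes were called (25.2% higher, 26.3% lower), 7 fell, Itga9 rose and Itga5 and Itgav were not called, with medians of -1.58 and 0.02. The libraries did not overlap for 9 subunits, as for 67.3% of all genes. The 6 comparisons share libraries, so these counts are not independent of each other. The counts and medians of all 6 include Itga6 and Itgb1, whose proteins were sort markers. Both fell in every comparison except basal HB over ORS, where neither was called. The part of the sort in these counts was not tested.

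The scale bore on 4 of the 6 comparisons. The median log2 change over genes was compared between counts and TPM with a pseudocount of 1. Relative to counts, the TPM median moved by 0.221 in ORS over HFSC and 0.265 in basal HB over HFSC. It moved by -0.192 in suprabasal HB over basal HB and -0.165 in suprabasal HB over ORS. In the other comparisons it moved by 0.053 (suprabasal HB over HFSC) and 0.035 (basal HB over ORS). The count median is over all 20491 genes tested, the TPM median over those that also passed a low-value filter. These shifts therefore mix scale and filter. Without that filter the TPM medians of the first 4 were 0.127, 0.214, -0.158 and -0.126, against 0.173, 0.261, -0.192 and -0.176 with it. Upper-quartile scaling of the counts also moved the median in basal HB over HFSC, to 0.131 from -0.00404 with TMM. In basal HB over HFSC, 5 of the 10 subunits were called on filtered TPM in limma, against 9 on counts: Itga5, Itga6, Itgb1 and Itgb4 lost their calls. Relative to the median of the genes covered on each scale, Itga6 was at -0.17 on TPM and -0.34 on counts. Itgb1 was at -0.53 and -0.66, and Itgb4 at -0.78 and -0.85. In ORS over HFSC, 7 subunits were called on both scales.

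**Figure D3:**
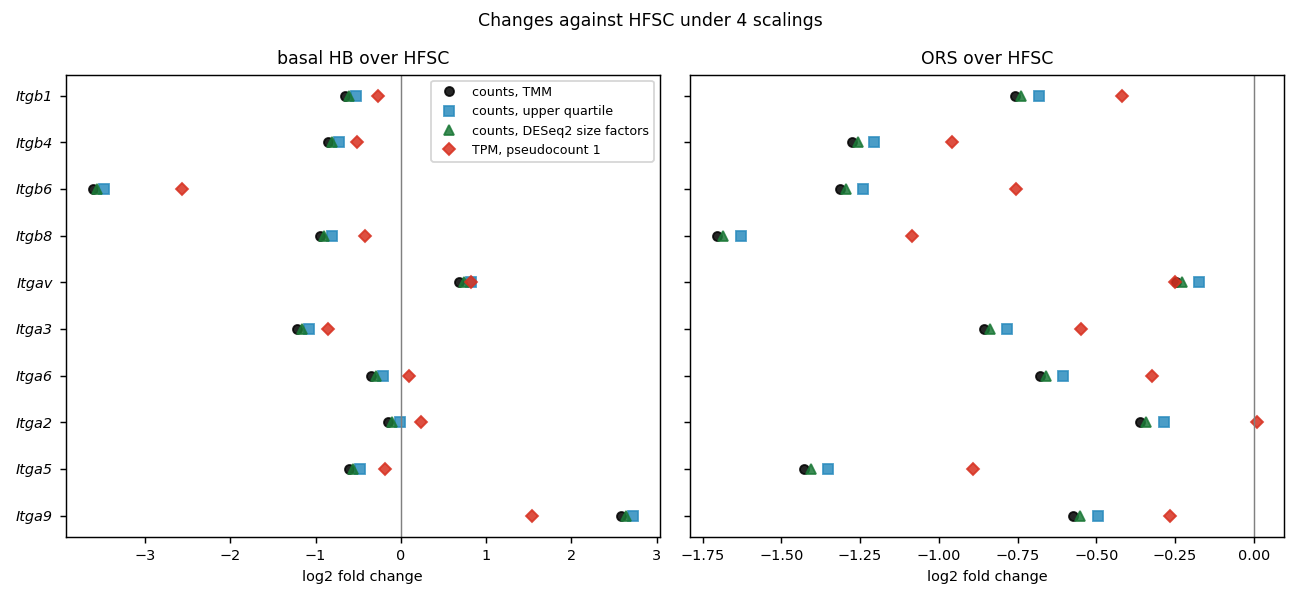
Log2 fold change (x axis) of the 10 subunits (rows) in basal HB over HFSC (left) and ORS over HFSC (right), from counts under 3 scalings and from TPM with a pseudocount of 1. The TPM values of most subunits lie to the right of the count values. In basal HB over HFSC, Itga6 is at -0.35 on counts with TMM, -0.21 with upper-quartile scaling and 0.10 on TPM, where it crosses 0.

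The make-up of the integrin transcript pool was read from the TPM of all 18 α and 8 β subunits. Itga3 made up 21.4% and 22.0% of the α pool in suprabasal HB, 25% and 26.0% in basal HB, 40.9% and 38.7% in ORS, and 45.4%, 42.0% and 43.6% in HFSC. Itga6 took 38.2% and 39.7% in suprabasal HB, 31.5% and 31.5% in basal HB, 29.7% and 29.8% in ORS, and 27.1%, 29.5% and 27.1% in HFSC. The share of Itgav was 23.2% and 25.3% in suprabasal HB, 18.9% and 18.9% in basal HB, 9.93% and 12.6% in ORS, and 9.18%, 10.6% and 10.3% in HFSC. Itga3 was therefore the leading α transcript in ORS and HFSC and Itga6 in both hair bulb populations.

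In the β pool, the share of Itgb1 changed little, between 54.2% and 62.8% in every library, while those of other subunits changed more. Itgb4 took 10.3% and 7.07% in suprabasal HB, against 13.97% to 23.5% in the other 7 libraries. Itgb3 took 7.21% and 7.83% in suprabasal HB, and at most 0.744% elsewhere. The summed TPM of the 10 subunits was 325 and 278 in suprabasal HB, 724 and 721 in basal HB, 561 and 675 in ORS, and 975.3, 805 and 843 in HFSC.

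**Figure D4:**
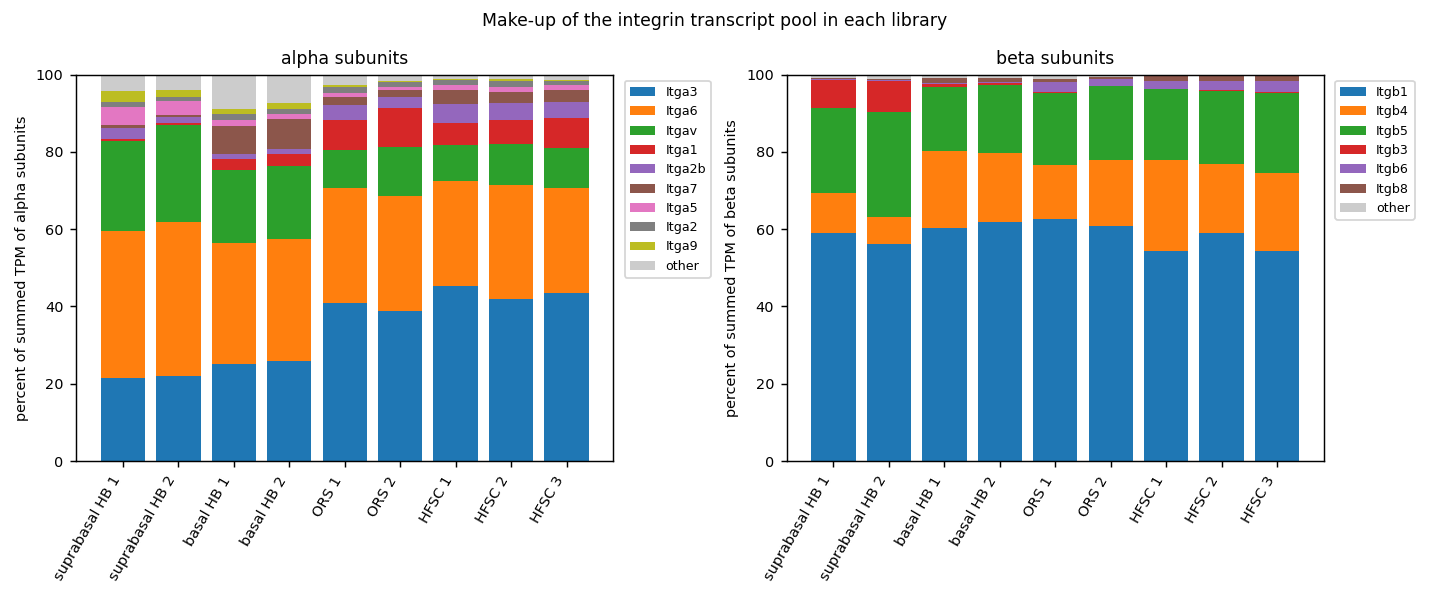
Percent of the summed TPM (y axis) of α subunits (left) and β subunits (right) taken by each gene in the 9 libraries (x axis); genes not named are pooled as other. The Itga3 band is wider in ORS and HFSC, and those of Itga6 and Itgav narrower, and Itgb3 forms a visible band in the suprabasal HB libraries, at 7.21% and 7.83%.

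Of the 16 integrin subunits outside the 10, 15 passed the low-count filter. In suprabasal HB over HFSC, 7 of them fell and 2 rose, where 26.3% of all genes fell and 25.2% rose. In suprabasal HB over basal HB, 5 fell and 1 rose (14.8% and 13.1% of all genes). In ORS over HFSC, 5 fell and 2 rose (23.8% and 18.1%), and the share called was near that of all genes, 41.9%. In basal HB over ORS, 6 rose and 2 fell (15.8% and 14.7%). In basal HB over HFSC, 6 rose and 4 fell (22.8% and 26.1%). Itga1, the α subunit of another collagen receptor, had 0.835 ± 0.233 TPM in suprabasal HB, 13.1 ± 1.32 TPM in basal HB and 32.9 ± 11.6 TPM in ORS (SD, n = 2 each), and 31.4 ± 5.03 TPM in HFSC (SD, n = 3). It was lower by 5.37 on the log2 scale in suprabasal HB than in HFSC (log2 fold change -5.37, edgeR adjusted p = 1.88e-06).

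Itga4, Itga7 and Itga8 were highest in basal HB. Itga8, the α subunit of a nephronectin receptor, had 13.1 and 11.2 TPM there and at most 1.26 TPM in any other library, with a log2 fold change of 4.08 over ORS (edgeR adjusted p = 0.000358). Itga4, the α subunit of α4β1, had 16.6 and 13.0 TPM in basal HB and at most 2.84 TPM elsewhere, with a log2 fold change of 4.18 over HFSC (edgeR adjusted p = 4.24e-06). Itga7, the laminin-binding α subunit known from muscle, had 33.7 and 34.5 TPM in basal HB and fell by 4.69 on the log2 scale in suprabasal HB against basal HB (edgeR adjusted p = 1.41e-05). Of the 5 mural markers, Myh11, Rgs5 and Des were also highest in basal HB, with Myh11 at 385 and 396 CPM there, whereas Acta2 and Tagln, and with them the sum of all 5, were highest in HFSC. The part of these cells in the 3 subunits was not tested.

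**Figure D5:**
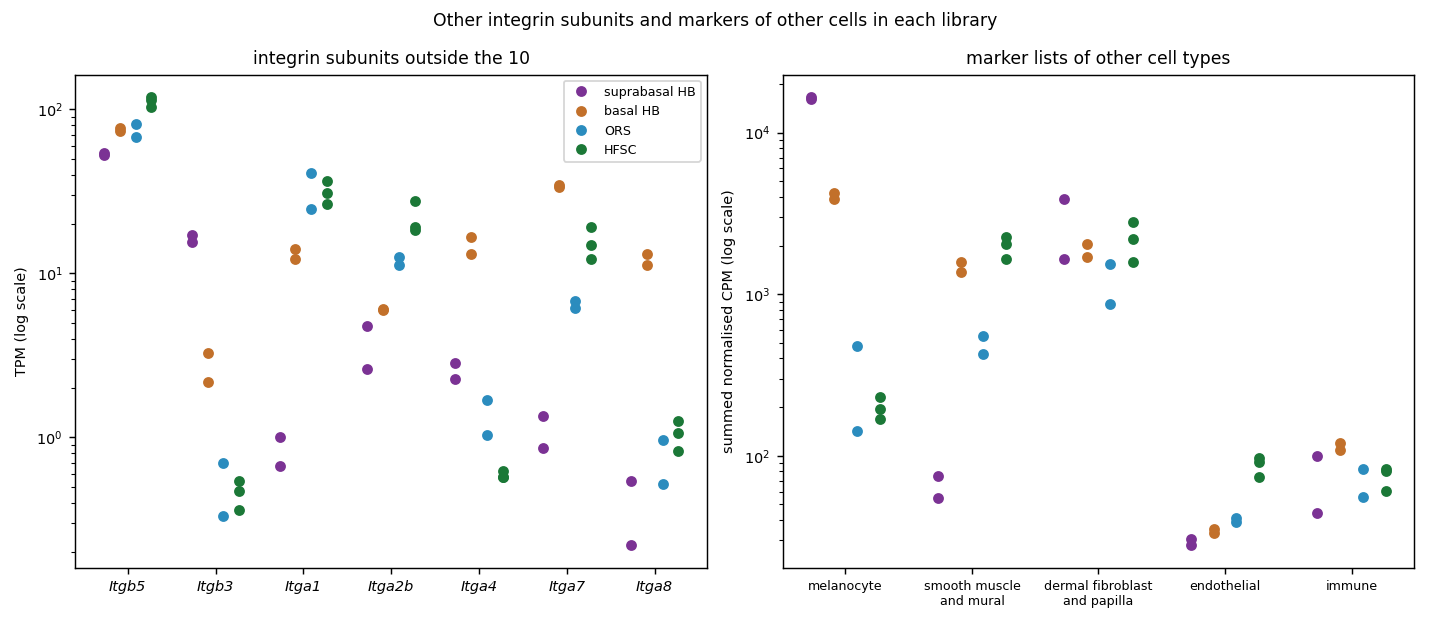
Left, TPM on a log axis of 7 integrin subunits outside the 10; right, summed normalised CPM on a log axis of marker lists of other cell types; points are libraries of suprabasal HB, basal HB, ORS and HFSC. Itgb3 and the melanocyte sum are both highest in suprabasal HB, at 15.6 to 17.1 TPM and 16200 to 16610 CPM, and Itga4, Itga7 and Itga8 are highest in basal HB.

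The ligands were read from 2 lists. Of 11 laminin chains, 8 fell and 0 rose in ORS over HFSC (median log2 fold change -1.26), 9 fell and 1 rose in suprabasal HB over basal HB (-1.39) and 8 fell and 2 rose in suprabasal HB over HFSC (-1.81). Of all genes, 23.8%, 14.8% and 26.3% fell in these 3 comparisons. In basal HB over ORS, 6 laminin chains rose and 2 fell, where 15.8% of all genes rose and 14.7% fell. Lama2 (3.57, edgeR adjusted p = 0.00128) and Lama4 (3.21, edgeR adjusted p = 0.00036) led the rise. Of the 10 dermal fibroblast and papilla markers, 6 rose and 1 fell in that comparison, with Hhip at 4.78 and Pdgfrb at 3.49 on the log2 scale, and of the 5 mural markers 4 rose. Their part in the laminin levels was not tested. Lama1 rose, with a log2 fold change of 4.26 in suprabasal HB over HFSC (edgeR adjusted p = 2.03e-05). Its level was low, with means of 8.17 CPM in suprabasal HB and 0.42 CPM in HFSC. Lamb1 averaged 126.6 CPM and 866.5 CPM in the same populations.

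Of 14 other matrix ligands, 7 fell and 0 rose in ORS over HFSC, where 23.8% of all genes fell and 18.1% rose. In suprabasal HB over HFSC, 6 of them fell and 3 rose, where 26.3% of all genes fell and 25.2% rose. Tnc, which encodes tenascin-C, a ligand of α9β1 and αv integrins, averaged 9.20 CPM in suprabasal HB, 78.8 CPM in basal HB, 318 CPM in ORS and 836 CPM in HFSC. It was thus higher in ORS and HFSC, where Itga9 was lower. Thbs1, a matrix glycoprotein, fell by 5.89 on the log2 scale in suprabasal HB against HFSC (edgeR adjusted p = 1.99e-06). Egfl6, whose protein binds α8β1 integrin, averaged 86.4 CPM in suprabasal HB, 10.3 CPM in basal HB, 7.67 CPM in ORS and 29.7 CPM in HFSC. It fell by 1.95 on the log2 scale in ORS against HFSC (edgeR adjusted p = 0.000131) and rose by 1.54 in suprabasal HB against HFSC (edgeR adjusted p = 0.000106).

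Most rows of the hemidesmosome list fell wherever Itgb4 fell. The list has 7 rows for 6 genes, as Dst has a pair of rows, and 6 of them fell in ORS over HFSC, 5 in basal HB over HFSC, 4 in suprabasal HB over basal HB, 4 in suprabasal HB over ORS and 5 in suprabasal HB over HFSC. Of all genes, 23.8%, 26.1%, 14.8%, 15.1% and 26.3% fell in these comparisons, in the same order. Col17a1, the transmembrane collagen of hemidesmosomes, averaged 122 CPM in suprabasal HB, 267 CPM in basal HB, 299 CPM in ORS and 1373 CPM in HFSC. It fell by 3.50 on the log2 scale in suprabasal HB against HFSC (edgeR adjusted p = 4.23e-06). Plec, the plectin that ties β4 to keratin filaments, fell by 1.04 in suprabasal HB against basal HB (edgeR adjusted p = 0.0025), as Itgb4 did, but rose by 1.12 in basal HB against HFSC (edgeR adjusted p = 0.000376), where Itgb4 fell. It averaged 227 CPM in suprabasal HB, 467 CPM in basal HB, 223 CPM in ORS and 215 CPM in HFSC. The minor Dst row was at 0 in both ORS libraries and is not given a fold. It is among the falls counted in ORS over HFSC. By contrast, it rose in suprabasal HB over ORS, in basal HB over HFSC (edgeR adjusted p = 0.02) and in suprabasal HB over HFSC (edgeR adjusted p = 0.005). Its mean was 2.42 CPM in HFSC, 6.325 CPM in basal HB and 8.77 CPM in suprabasal HB.

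Inside the cell, integrins are switched on by talins and kindlins and coupled to actin by adhesion plaque proteins. Of 8 talin, kindlin and Rap1 genes, 3 fell and 2 rose in suprabasal HB over HFSC, where 26.3% of all genes fell and 25.2% rose. Fermt1, the keratinocyte kindlin that activates β1 integrins, fell by 1.73 on the log2 scale (edgeR adjusted p = 9.97e-06), and Fermt3, the kindlin of blood cells, rose by 1.69 (edgeR adjusted p = 7.88e-05). Of 26 genes for ILK, FAK and other focal adhesion proteins, 20 fell and 0 rose in suprabasal HB over basal HB (median log2 fold change -0.93), 17 fell and 3 rose in suprabasal HB over HFSC (-0.97), and 14 fell and 2 rose in ORS over HFSC (-0.55). Of all genes, 14.8%, 26.3% and 23.8% fell in these comparisons. In basal HB over ORS, 8 of the 26 rose and 5 fell, where 15.8% of all genes rose and 14.7% fell.

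Ptk2b, the FAK-related kinase, averaged 6.15 CPM in suprabasal HB, 17.4 CPM in basal HB, 57.1 CPM in ORS and 186 CPM in HFSC and fell by 4.91 on the log2 scale in suprabasal HB against HFSC (edgeR adjusted p = 8.27e-07). Parvb, β-parvin, ran the other way, with a log2 fold change of 4.65 in basal HB over HFSC (edgeR adjusted p = 7.56e-06). Of 5 tetraspanins that bind integrins, 4 fell in each of the comparisons with HFSC, where 23.8% to 26.3% of all genes fell. Cd151, the partner of α3β1, averaged 128 CPM in suprabasal HB, 136 CPM in basal HB, 153 CPM in ORS and 294 CPM in HFSC. Cd63 rose by 2.24 on the log2 scale in suprabasal HB against basal HB (edgeR adjusted p = 1.58e-05). The melanocyte markers other than Gpnmb were also higher in suprabasal HB, and their part was not tested. Of 7 inactivators and recycling factors tested, at most 4 fell and at most 1 rose in any comparison. Of all genes, 14.7% to 26.3% fell and 13.1% to 25.2% rose. Kank1 fell by 1.94 in suprabasal HB against HFSC (edgeR adjusted p = 8.57e-06).

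The genes whose log2 CPM followed each subunit most closely across the 9 libraries are given as a description, since libraries of a population share their level and each is the best of 20490 genes. They were Sh2d6 for Itga3 (Pearson r = 0.9991), Sdc2 for Itgb1 (0.9966), Tspan17 for Itga6 (0.9929), Lats2 for Itgb4 (0.9971), 4930452B06Rik for Itgb6 (0.9988) and Ppp1r3c for Itgb8 (0.9946). For the remaining subunits they were Sel1l for Itgav (0.9877), Fam189a2 for Itga5 (0.991), Epb4.1l2 for Itga9 (0.9925) and Zfp287 for Itga2 (0.967). The second genes in each ranking were Car9, Abcg2, Ehd3, Parp3, Tgif1, Arhgap6, Cpeb2, Pex19, Gnb4 and Zdhhc2, in the order of the subunits just named, with r of 0.9652 or above.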

How the data were processed

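RNA sequencing tables of 9 libraries were read: per-gene expected counts and TPM, both deposited by the authors. Bowtie2 2.2.9, RSEM 1.2.30 and the mouse build mm10 are named in the submitters' processing notes; parameters, annotation and strand setting are not given in the sources used here. Per the labels, libraries were made with the TruSeq mRNA kit from TRIzol-lysed sorted cells and sequenced in pairs, with RNA integrity numbers over 9. The effective length that the authors deposited was the length minus 50 in 99.85% of rows. Gene symbols come from the deposited row names, and 46005 of 46517 rows (98.9%) matched GENCODE M21. The 92 spike-in rows were at 0.

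Expected counts were rounded and tested with edgeR 4.0.16 (R 4.3.3) on all 9 libraries in 1 quasi-likelihood fit, with TMM scaling (factors 0.8996 to 1.127), the default low-count filter (20491 genes) and Benjamini-Hochberg adjustment over all of them, at 0.05. The residual degrees of freedom were 5 and the common biological coefficient of variation 0.182. Normalised CPM uses the TMM-scaled library sizes. Errors are SD over libraries or SE of the fit. In data simulated for suprabasal HB over HFSC, 70% of 2-fold and 86% of 4-fold changes were called. Far fewer genes were changed there than the 51.5% called in the data, so these rates do not carry over to the data. Alternatives were DESeq2 1.42.0, other scalings and filters, limma 3.58.1 on log2(TPM + pseudocount), a replicate block and leaving out each library.

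The 10 genes, the pathway lists and the marker lists were chosen with earlier results of these data known, so their counts are descriptions. Named besides the 10 genes were up to 2 called genes with the largest change per list and comparison, the 2 nearest genes by correlation, and the most abundant other subunit; single markers were named after their values were seen. A result that the rule names is not reported here.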

Additional observations from a re-analysis of the deposited data

How the results depend on the processing

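Of the 60 results (10 subunits in 6 comparisons), 47 were called, and 46 of these kept their direction in all 20 alternatives and 36 kept their call. The exception in direction was Itga6 in basal HB over HFSC, which was 0.10 on TPM with a pseudocount of 1 or 0.1 and without a low-value filter, and whose call ended under upper-quartile scaling (adjusted p = 0.117) and without each HFSC library in turn (0.128 to 0.277). The members called in that comparison numbered 5 on TPM with a pseudocount of 1 and 4 with 0.1. They numbered 4 on TPM without a low-value filter, and 9 on counts. The median over genes shifts with the scale and the filter, and the cause was not tested. Among results that were not called, Itga2 in ORS over HFSC was 0.012 on TPM (0.020 with a pseudocount of 0.1), Itga2 in basal HB over HFSC 0.24 on TPM (0.28 with 0.1), 0.06 without HFSC 1 and 0.14 without HFSC 2 (-0.24 to 0.14 over all libraries left out), and Itga5 in suprabasal HB over HFSC 0.0030 on TPM (0.0026 with 0.1), 0.10 without suprabasal HB 2 and 0.05 without HFSC 1 (-0.24 to 0.10). Itgav without ORS 1 was 0.0027 in ORS over HFSC (-0.54 to 0.0027) and -0.18 in suprabasal HB over ORS (-0.18 to 0.36). Leaving out 1 library at a time gave 7 to 8 members called in ORS over HFSC, 4 to 5 in basal HB over ORS, 7 to 9 in basal HB over HFSC, 7 to 9 in suprabasal HB over basal HB, 8 to 9 in suprabasal HB over ORS and 8 to 8 in suprabasal HB over HFSC, and 6503 to 8579, 3425 to 6252, 6422 to 10152, 2729 to 5870, 3823 to 6296 and 8717 to 10651 genes called in the same order. The lowest gene counts came without basal HB 1 in basal HB over ORS, basal HB over HFSC and suprabasal HB over basal HB, and without ORS 2 in suprabasal HB over ORS; a population left with 1 library is assumed to vary like the others. On TPM the share of called genes that were higher was 68.7% in ORS over HFSC, 71.5% in basal HB over HFSC, 20.6% in suprabasal HB over basal HB and 29.2% in suprabasal HB over ORS, against 43.2%, 46.7%, 46.8% and 48.6% on counts; upper-quartile scaling gave 57.2% in basal HB over HFSC. The labels share replicate numbers but do not say that they pair libraries. Deviations of same-numbered libraries correlated at -0.0686 to 0.121. With the replicate block, 7, 5, 7, 9, 9 and 8 members were called. On the same 8 libraries without it, 7, 5, 8, 8, 9 and 8 were called. That unblocked fit was added after seeing the data. It is the same as leaving out HFSC 3, so the 20 alternatives hold this fit in duplicate. Itgb4 in basal HB over HFSC had an edgeR adjusted p of 0.0538 with the block. With 2 or 3 libraries per population, a difference can be missed. In the simulations, 47% to 70% of 2-fold changes were called. Far fewer genes were changed there than the 27.9% to 51.5% called in the data, so these rates do not carry over to the data.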
